A study of Homo sapiens with 19 samples.

Results

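The ERRα peak lists of lapatinib-resistant SKBr3 cells (LRSKBr3) and of the parental line (pSKBr3) were compared site by site. There were 39777 peaks for LRSKBr3 and 22539 for pSKBr3. Any peaks sharing 1 bp or more were joined into 1 site, which gave 42554 sites, set against 90452 regions when the peaks of all 8 lists of the study were merged in the same way. A site was called gained when it held only LRSKBr3 peaks, kept when it held peaks of both lists and lost when it held only pSKBr3 peaks. There were 20724 gained, 18970 kept and 2860 lost sites.

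SKBr3 is a HER2-amplified human breast cancer line, and lapatinib is a small-molecule inhibitor of the kinases EGFR and HER2. pSKBr3 cells were labelled untreated, LRSKBr3 cells were a derivative kept in 2 μM lapatinib, and both were grown in DMEM with fetal bovine serum. Each list came from 2 ERRα chromatin immunoprecipitation (ChIP) libraries and 1 input library of its line, pooled before peak calling, so no peak has a replicate value and the lists allow no test between the lines. The resistant line and the presence of the drug differ together and cannot be told apart, and the lists hold no expression values against which the identity of the cells could be checked.

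ERRα, encoded by ESRRA, is an orphan nuclear receptor that binds DNA at the ERR response element (ERRE), an extended form of the nuclear receptor half-site. With the coactivators PGC-1α and PGC-1β it is known as a regulator of genes of mitochondrial respiration, the tricarboxylic acid (TCA) cycle and fatty acid oxidation. AP-1 factors, dimers of FOS and JUN proteins that act downstream of growth factor signalling, bind a different short word, TGAGTCA or its reverse complement TGACTCA.

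To show what the sites look like at base level, the highest-scoring gained, kept and lost sites with an exact ERRE within 100 bp of the peak centre are printed first. Further gained sites near genes of the lists described below follow them, chosen after their values were seen. All are hg19 (GRCh37) sequence, read 5′ to 3′ on the strand named, and the capitals mark the ERRE (TCAAGGTCA).
NRDE2, gained, chr14:90768500-90768598, plus strand: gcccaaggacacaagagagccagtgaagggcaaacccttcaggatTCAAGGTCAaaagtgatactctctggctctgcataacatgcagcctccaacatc
FHAD1, kept, chr1:15611461-15611559, minus strand: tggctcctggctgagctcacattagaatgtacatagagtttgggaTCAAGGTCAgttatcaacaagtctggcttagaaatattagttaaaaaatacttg
NFASC, lost, chr1:204835554-204835652, minus strand: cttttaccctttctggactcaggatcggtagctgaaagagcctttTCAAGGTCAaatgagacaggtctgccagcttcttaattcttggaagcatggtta
GSTK1, gained, chr7:142937957-142938055, minus strand: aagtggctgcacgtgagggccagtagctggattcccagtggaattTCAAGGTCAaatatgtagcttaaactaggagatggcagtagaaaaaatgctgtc
AXL, gained, chr19:41741579-41741677, minus strand: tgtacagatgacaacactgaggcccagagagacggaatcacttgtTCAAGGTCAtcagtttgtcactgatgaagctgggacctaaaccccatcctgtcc
ETFB, gained, chr19:51865931-51866029, plus strand: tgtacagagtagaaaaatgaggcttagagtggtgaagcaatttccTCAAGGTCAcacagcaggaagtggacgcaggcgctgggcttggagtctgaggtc
RICTOR, gained, chr5:39081237-39081335, minus strand: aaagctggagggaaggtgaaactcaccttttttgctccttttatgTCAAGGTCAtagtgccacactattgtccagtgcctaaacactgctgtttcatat

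The NRDE2 site had an LRSKBr3 score of 1519 and lay in the promoter of NRDE2, a nuclear protein of RNA processing, with its centre 554 bp from a start. The score is the peak caller's significance, 10 times the negative log10 of its P value, and the authors' cutoff sets its floor at 50. The FHAD1 site scored 1655 in pSKBr3 and 3200.1 in LRSKBr3 and lay in an intron. The NFASC site scored 562 in pSKBr3 and lay in an intron of NFASC, a neuronal cell adhesion gene, 4431 bp from a start. Scores of the 2 lists rest on different libraries and inputs, so they were ranked within a list and never subtracted between lists.

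The lists differed mainly in one direction. LRSKBr3 had 76.5% more peaks than pSKBr3, and its peaks covered 70.3 Mb of the genome against 32.2 Mb. Of the pSKBr3 peaks 87.3% overlapped an LRSKBr3 peak, whereas 52.1% of the LRSKBr3 peaks overlapped none in pSKBr3. Gained sites made up 48.7% of all sites, kept sites 44.6% and lost sites 6.72%, which is 7.25 gained sites for each lost one. This ratio depended on the length of the lists. With the LRSKBr3 list cut to its 22539 highest-scoring peaks, 6503 sites were gained, 15998 kept and 5840 lost. With a minimum score of 100 in both lists, 13823 were gained, 12634 kept and 1011 lost. The files give no tag counts, so the depth of the libraries is unknown, and a site without a called peak in one line may still be bound there below the cutoff.

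Kept sites were mostly simple pairs. Of the 18970, 18254 (96.2%) held 1 peak of each list, and at 633 several pSKBr3 peaks fell under 1 LRSKBr3 peak. Peaks were wider in LRSKBr3 at 92.9% of the simple pairs, with a median width of 1668 bp against 1193 bp and a median ratio of 1.34 (quartiles 1.18 and 1.58). Of the gained sites, 42 lay within 100 bp of a pSKBr3 peak and 1044 (5.04%) within 1 kb, and the overlap at a kept pair was under 100 bp in 3 cases. The rule for a shared site still moved the classes. When an overlap of 50% of both peaks was required, 16507 sites were kept and 6032 lost, and when centres had to lie within 500 bp, 17055 were kept and 5481 lost.

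Gained and lost sites had low scores in their own lists. The median LRSKBr3 score was 93.1 at gained sites (quartiles 66.4 and 149) and 379 at kept sites (182 and 853). The median pSKBr3 score was 65.6 at lost sites (56.1 and 84.1) and 165 at kept sites (88.8 and 393). In each list the share of unmatched sites fell at every step from the lowest to the highest decile of scores. Gained sites made up 89.3% of the lowest LRSKBr3 decile (95% Wilson interval 88.3 to 90.2) and 0.654% of the highest (0.446 to 0.956). Lost sites made up 43.3% of the lowest pSKBr3 decile (41.2 to 45.4) and 0.224% of the highest (0.0958 to 0.524). These intervals, like the others given here, cover counting error only. A gained site scored at least 500 in 286 cases (1.38%) and a lost site in 19 (0.664%), whereas 40.4% of kept sites did so in LRSKBr3.

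**Figure D1:**
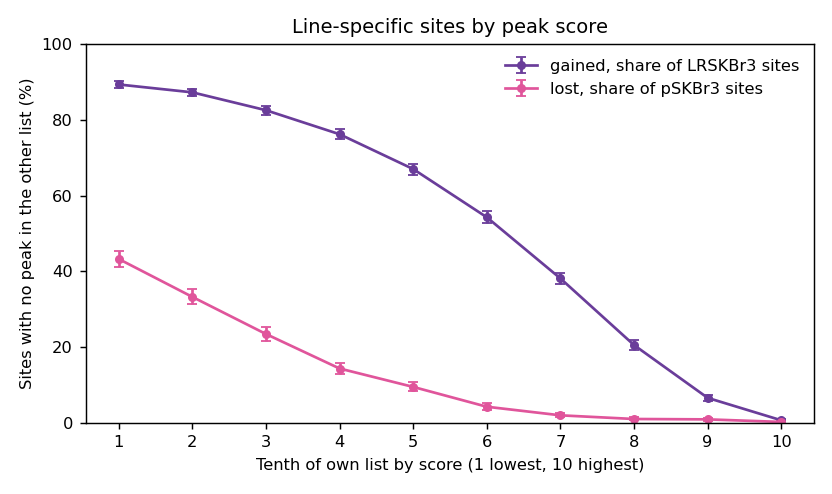
Share of sites with no peak in the other list (%, y axis) by decile of the site's score in its own list (x axis, 1 lowest and 10 highest). Points are shares and bars 95% Wilson intervals, purple for gained sites among LRSKBr3 sites and pink for lost sites among pSKBr3 sites; the gained share falls from 89.3% to 0.654% and the lost share from 43.3% to 0.224%.

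The highest decile of the LRSKBr3 list held 26 gained sites. The strongest was intronic with a score of 2686, and its nearest start, at 9597 bp, was that of METTL7A, a methyltransferase-like gene (chr12:51326950-51329840). The next was a peak of 17509 bp with a score of 2601 in intergenic sequence whose nearest start, at 211340 bp, was that of BMP7, a ligand of the TGF-β family (chr20:55620740-55638248). The strongest gained promoter site belonged to LGALS3BP, which encodes a secreted galectin-3-binding glycoprotein, with a score of 2519 and a distance of 709 bp (chr17:76970435-76977792). NRDE2 and YEATS2, a subunit of a histone acetyltransferase complex, held the next strongest gained promoter sites with scores of 1519 and 1070.2. Among other intronic gained sites in this decile, one of score 2144 was nearest to a start of DAB2IP, a RAS GTPase-activating protein. One of score 1819 was nearest to a start of JARID2, a Polycomb-associated factor.

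The strongest kept sites were promoter sites. RAB20, a small GTPase, scored 2728 in pSKBr3 and 3233 in LRSKBr3. OXA1L, which inserts proteins into the mitochondrial inner membrane, scored 2510.2 and 3233. CD59, an inhibitor of complement, scored 2415 and 3230.1. All 3 centres lay within 257 bp of a start.

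Only 5 lost sites reached the highest decile of the pSKBr3 list. The strongest, with a score of 1743, lay 3147 bp from a start of ZMYND8, a reader of histone marks (chr20:45987041-45990518). A lost intergenic site with a score of 1406 lay 49911 bp from RET, a receptor tyrosine kinase (chr10:43521497-43523715). The third scored 1107 and reached across the annotated 5′ end of NDUFA5, a subunit of complex I of the respiratory chain, with its centre inside the gene, 1010 bp from the nearest annotated start (chr7:123194608-123198838). In the 5 Mb window that holds this site (chr7:120000001-125000000) 17 sites were lost, 2 kept and 4 gained, a lost share of 89.5%. PFDN4, a prefoldin subunit, was nearest to the fourth, and the fifth was the strongest lost promoter site, at TTI1, a cofactor for assembly of mTOR and related kinases, with a score of 939.6. The next lost promoter sites, at ANKMY2 and at SLC25A4, the mitochondrial ADP/ATP carrier, scored 553 and 454.

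Kept sites lay closest to genes. Each site was placed by its centre, first as promoter when a start of a protein-coding gene lay within 1 kb, then as exon, intron or intergenic. Promoters held 25.5% of kept sites (95% interval 24.8 to 26.1), 11.8% of gained sites (11.4 to 12.3) and 9.90% of lost sites (8.85 to 11.04). Introns held 43.8% of gained, 36.8% of kept and 38.1% of lost sites, and intergenic sequence held 41.5%, 34.98% and 48.8%. Exons held between 2.74% and 3.11% of each class. Read the other way, 63.8% of the 7563 promoter sites were kept, 32.4% gained and 3.74% lost, whereas 52.9% of the intron sites and 51.7% of the intergenic sites were gained.

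The median distance from a site centre to the nearest start was 22126 bp at gained sites (quartiles 5320 and 69163), 12234 bp at kept sites (933 and 48511) and 43113 bp at lost sites (9569 and 139957). Sites over 100 kb from any start made up 18.2% of gained, 13.6% of kept and 32.1% of lost sites. The kept sites had the highest promoter share and the shortest median distance under each alternative setting. The order of gained and lost promoter shares turned over with higher cutoffs: 14.1% of gained and 21.96% of lost sites were promoter sites at a minimum score of 100, and 11.3% and 17.1% with lists of equal size.

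**Figure D2:**
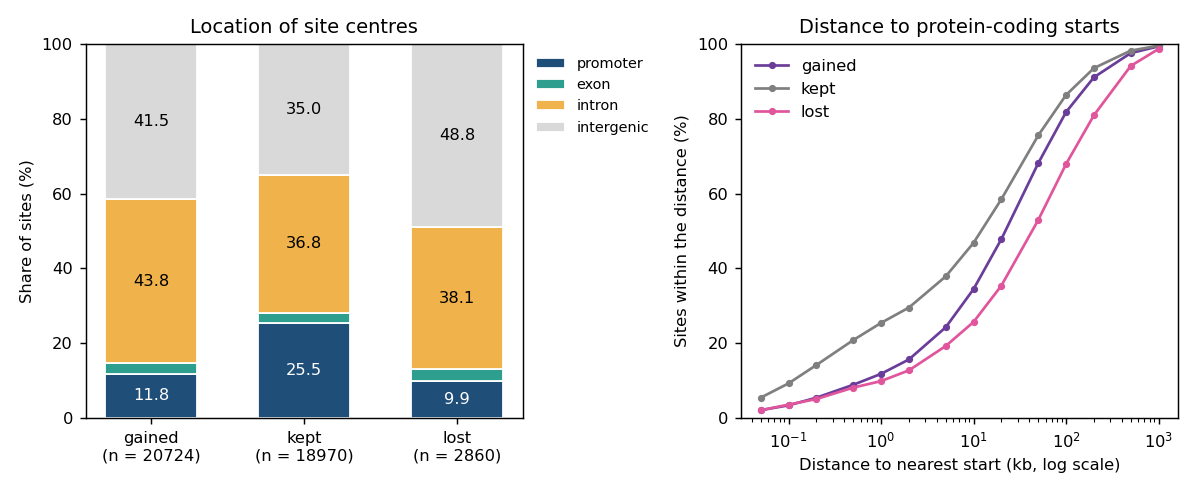
Left, share of sites (%) whose centre lies in a promoter (within 1 kb of a protein-coding start), exon, intron or intergenic sequence, by class. Right, cumulative share of sites (%) within a distance of the nearest start (kb, log axis); the kept line lies above the gained line, which lies above the lost line, from 1 kb outwards.

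The gained share was lower at promoters within each score class too. Within the lowest score quartile of the LRSKBr3 list, 77.7% of promoter sites (75.3 to 79.9) and 88.8% of other sites (88.1 to 89.4) were gained. Within the highest quartile the shares were 1.90% (1.42 to 2.53) and 7.35% (6.78 to 7.96).

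Among genes, 5416 of 19821 protein-coding genes (27.3%) had a kept site within 1 kb of a start. A gained site without a kept or lost one lay in the promoter of 2212 genes (11.2%), and a lost site without the others in that of 262 (1.32%). Of the gained promoter sites 51.9% lay upstream of the start (49.9 to 53.8), of the kept ones 47.8% (46.4 to 49.2) and of the lost ones 44.9% (39.2 to 50.7).

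Gained sites often lay beside other sites, most of them kept or gained. Another site lay within 10 kb of 49.4% of gained sites, 51.8% of kept sites and 30.3% of lost sites. A gained site had another gained site within 10 kb in 31.7% of cases, a kept site in 27.3% and a lost site in 1.97%. A lost site had a gained site within 10 kb in 12.3% of cases, a kept site in 14.9% and another lost site in 7.97%. The share of lost sites with a neighbour was the lowest of the classes at 5 kb (16.7%) and at 25 kb (54.8%) as well.

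Chains of sites in which each centre lay within 10 kb of the next numbered 7662 and held 20927 sites. Gained and kept sites stood together in 4178 chains, 1641 chains were made of gained sites only, 1286 of kept sites only and 81 of lost sites only. Of all gained sites, 6319 shared a chain with a kept site, 3639 stood in chains of gained sites only and 10485 stood alone.

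The chain with most gained sites spanned 57.3 kb around CCDC12 and PTH1R, the parathyroid hormone receptor gene, and held 9 gained and 3 kept sites (chr3:46966723-47024038). PISD, which makes phosphatidylethanolamine in mitochondria, lay in a chain of 8 gained and 4 kept sites over 56.2 kb. A chain near KIAA1671 and CRYBB3 held 8 gained and 1 kept site, and a chain near ARHGAP10, a GTPase-activating protein, 8 gained and 2 kept. Around CISH, a feedback inhibitor of cytokine signalling, with C3orf18, HEMK1 and MAPKAPK3, 7 gained and 6 kept sites spanned 56.9 kb.

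The chains richest in gained sites without any pSKBr3 peak held 6 each. They lay near IKZF2, a zinc-finger transcription factor of the Ikaros family (chr2:213770092-213794421), at ADIRF, MMRN2 and SNCG, the last encoding γ-synuclein (chr10:88704010-88728852), and at ATP6V0D1 and HSD11B2, a subunit of the vacuolar proton pump and a cortisol-inactivating enzyme (chr16:67474905-67496613). The chains with most lost sites held 3 each. One, at ZMYND8, had no other site, one at EIF6, FAM83C and MMP24OS also held 1 gained site, and one at RARA, the retinoic acid receptor α gene, also held 2 gained sites.

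Lost sites were spread unevenly over the chromosomes. The lost share of pSKBr3 sites was 28.7% on chromosome 20 (95% interval 25.9 to 31.6), 27.3% on chromosome 13 (23.7 to 31.3), 26.6% on chromosome 7 (24.4 to 28.97) and 22.6% on chromosome 8 (19.3 to 26.4). It was lowest, at 4.95%, on chromosome 22 (3.42 to 7.10). The gained share of LRSKBr3 sites ran from 37.5% on chromosome 13 (33.8 to 41.4) to 63.0% on chromosome 4 (60.5 to 65.4). Chromosome Y, with 6 sites in all, was not counted in these ranges.

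In windows of 5 Mb with at least 20 pSKBr3 sites, the median lost share was 9.52% and the highest 68.6%. In 7 of these 383 windows at least as many pSKBr3 sites were lost as kept. Those on chromosome 20 lay between 5 and 25 Mb, where the window at 10 to 15 Mb held 30 lost, 17 kept and 16 gained sites. Another lay at 125 to 130 Mb on chromosome 7 with 21 lost, 18 kept and 17 gained sites, and the rest on chromosome 8. The 81 windows with a lost share of at least 20% held 43.3% of the lost and 14.9% of the kept sites. The lists hold neither tag counts nor input coverage, so the DNA content of these regions in the cells used was not measured, and its part in the pattern was not tested.

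**Figure D3:**
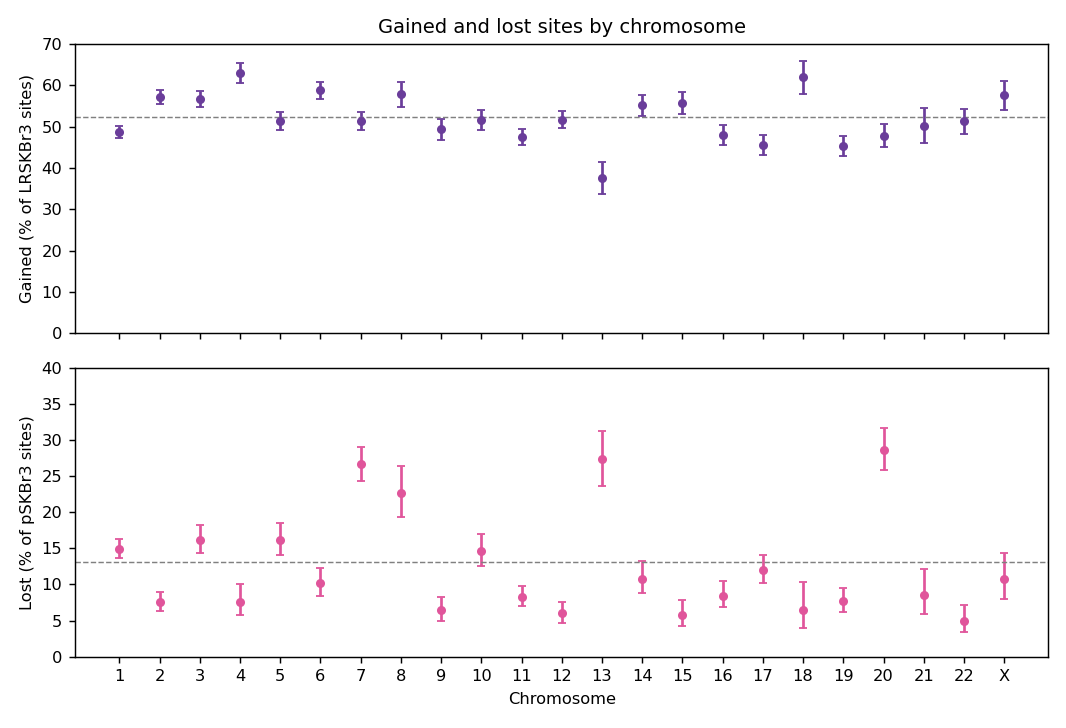
Gained share of LRSKBr3 sites (%, upper panel) and lost share of pSKBr3 sites (%, lower panel) on each chromosome except Y. Points are shares, bars 95% Wilson intervals and dashed lines the shares over the chromosomes shown; chromosomes 7, 8, 13 and 20 stand highest in the lower panel, with lost shares from 22.6% to 28.7%.

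The ERRE shares of gained and kept sites had overlapping intervals, and the share of each class stood above that of its flanks. The exact word TCAAGGTCA, on either strand, lay within 100 bp of the centre at 7.52% of gained sites (95% interval 7.17 to 7.88), 7.26% of kept sites (6.90 to 7.64) and 6.15% of lost sites (5.33 to 7.09). In windows of the same length 2 kb to either side the shares were 0.299%, 0.345% and 0.385%. The AP-1 word lay at 6.10% of gained (5.78 to 6.43), 5.198% of kept (4.89 to 5.52) and 4.41% of lost sites (3.71 to 5.22), against 3.26%, 3.33% and 3.08% in the flanks. An exact word misses variants of a site, so these shares are not shares of bound sites with an element.

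Promoters held few exact ERREs. At promoter sites the ERRE share was 1.96% for gained, 1.51% for kept and 1.77% for lost sites. Away from promoters it was 8.26% for gained (7.87 to 8.67), 9.22% for kept (8.75 to 9.71) and 6.64% for lost sites (5.74 to 7.66), so that kept sites ranked first there. The AP-1 share away from promoters was 6.50% at gained (6.15 to 6.86), 6.22% at kept (5.84 to 6.63) and 4.66% at lost sites (3.91 to 5.54), and the intervals of the first pair overlapped. Both words together lay at 78 gained, 71 kept and 10 lost sites.

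Gained sites of low score held the ERRE more often than those of high score. In the lowest quartile of the LRSKBr3 list 8.84% of gained sites (8.26 to 9.46) held it, and in the highest 3.83% (2.56 to 5.68). Kept sites ran from 9.42% (7.92 to 11.2) in the lowest quartile of their LRSKBr3 scores to 6.02% (5.56 to 6.52) in the highest. Gained sites with no other site within 10 kb held the ERRE in 9.69% of cases (9.14 to 10.3) and those with a neighbour in 5.29% (4.88 to 5.74). For AP-1 these shares were 6.10% and 6.09%. Both words were sought around the interval midpoint, which is not a summit. Peak width was not held fixed, and its part in these differences was not tested.

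The rank of the lost sites moved with the cutoff. At a minimum score of 100 the ERRE lay at 7.91% of lost, 6.83% of gained and 6.66% of kept sites, and with lists of equal size at 7.997%, 6.24% and 6.84%. The AP-1 share of gained sites stayed the highest of the classes in each alternative tried.

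**Figure D4:**
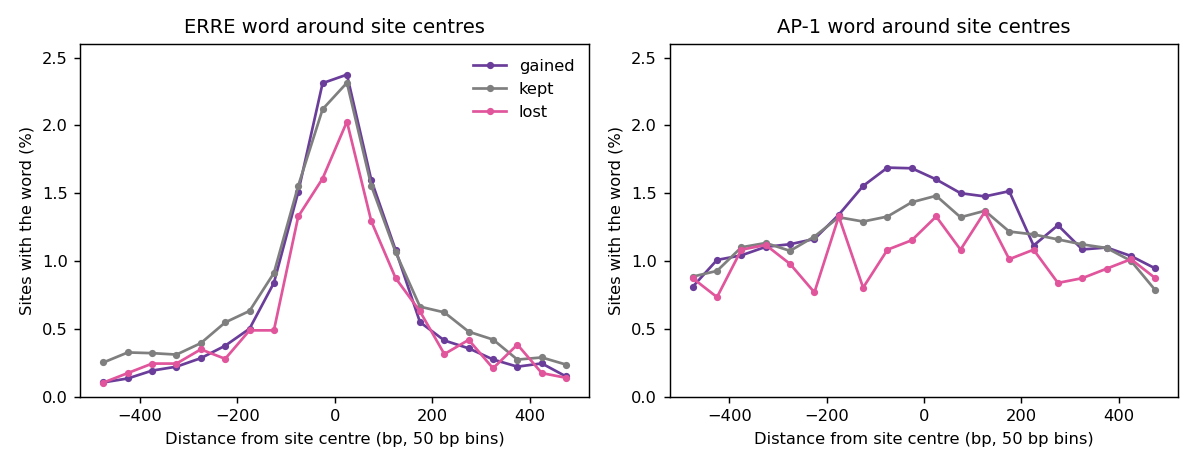
Share of sites (%) with the ERRE word (left) or the AP-1 word (right) in each 50 bp bin from 500 bp before to 500 bp after the site centre, for gained (purple), kept (grey) and lost (pink) sites. The ERRE share of gained sites rises from 0.106% in the outermost bin on the left to 2.37% just right of the centre, and the AP-1 curves vary less across the window.

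Genes were then sorted by the peaks within 20 kb of their starts. Of 19821 protein-coding genes, 10309 (52%) had a peak of each list in that range. Gained sites with no pSKBr3 peak, here called gained only, lay near 2994 genes (15.1%), and lost sites with no LRSKBr3 peak, called lost only, near 378 (1.91%). No peak of either list lay near 6129 genes. A further gained site lay near 5559 of the genes with peaks in both lists. With lists of equal size, 1110 genes were gained only and 1365 lost only.

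Most gained-only genes had few sites: 2023 of them (67.6%) had 1 gained site and 22 had at least 5. ATP6V0D1 and TIAM2, an exchange factor for the GTPase RAC, had 7 each, with highest scores of 443 and 377. SNCG and the neighbouring MMRN2 had 6, as did ALDH4A1, a mitochondrial enzyme of proline breakdown, MCAM, a cell adhesion molecule, and ZDHHC18, a palmitoyltransferase. SNCG and MMRN2 share their sites. Among lost-only genes CCDC136, OR10J5, an olfactory receptor gene, and CHGB, which encodes secretogranin-1, had 3 lost sites each, with highest scores of 118, 98.4 and 96.7, and NFASC and CPA5 had 2 each, with 562 and 417.

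Genes of the respiratory chain were mostly bound in both lines. Of 37 complex I subunit genes 34 (91.9%) had peaks in both lists, and of 44 genes of complexes II to V 43 (97.7%) did, against the 52% of all coding genes. A kept site lay in the promoter of 34 complex I genes and of 41 genes of complexes II to V, against 27.3% of all coding genes. NDUFB11 (score 200) and COX6B2 (70), a testis form of a cytochrome c oxidase subunit, were gained only. They make 2.70% and 2.27% of these lists against 15.1% of all coding genes. NDUFA5 was lost only, which makes 2.70% of the complex I genes against 1.91% of all coding genes. In complexes II to V the gained-only count was 2 at a minimum score of 100 and 0 within 10 kb or with lists of equal size. Of all 19821 coding genes, 3091, 3075 and 1110 were gained only at these settings. Of 32 genes of the TCA cycle and pyruvate entry 27 (84.4%) had peaks in both lists, and ME2 and ME3, the mitochondrial malic enzymes, were gained only (6.25%), with scores of 148 and 71.7. The TCA gained-only count was 4 of 32 at a minimum score of 100 and 5 of 32 within 10 kb. The counts over all 19821 coding genes were 3091 and 3075. These lists were chosen with earlier results of the data known, and their counts are given as descriptions beside the shares over all genes.

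Fatty acid oxidation genes had peaks in both lists in 22 of 31 cases (71.0%) and were gained only in 5 (16.1%), against 52% and 15.1% of all coding genes. The gained-only count was 3 of 31 with lists of equal size, against 1110 of all 19821 coding genes. ACSL1, which activates long-chain fatty acids, had 5 gained sites, 4 of them within 1 kb of a start, with scores from 66.4 to 174. ACOX3, a peroxisomal oxidase, had 3, the highest scoring 336. ACAA2, the mitochondrial thiolase, had a promoter site of score 180.0, ACAA1, the peroxisomal thiolase, a site of score 106, and ETFB, a subunit of the electron transfer flavoprotein, a site of score 127 that holds the ERRE printed above.

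Glutamine metabolism and transport had 23 of 35 genes (65.7%) with peaks in both lists, 7 (20%) gained only and 1 (2.86%) lost only, against 52%, 15.1% and 1.91% of all coding genes. At equal list size 4 of 35 were gained only, against 1110 of all 19821 coding genes. SLC1A5, a glutamine transporter, had 4 gained sites, the strongest with a score of 322 and its centre 1004 bp upstream of a start. CTPS1, a CTP synthase that uses glutamine, had a site of score 466, and ALDH4A1 had 6 with scores from 62.0 to 239. PSAT1, of serine synthesis, was lost only, with a score of 66.4.

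Of 44 glutathione genes, 31 (70.5%) had peaks in both lists, 6 (13.6%) were gained only and 1 (2.27%) was lost only, against 52%, 15.1% and 1.91% of all coding genes. The gained-only count rose to 10 of 44 both at a minimum score of 100, where 3091 of 19821 coding genes were gained only, and within 10 kb, where 3075 were. GSTA4, a glutathione transferase that acts on lipid aldehydes, had a gained promoter site of score 479, its centre 332 bp upstream of the start, and a second gained site of score 60.4. GCLC, the catalytic subunit of the enzyme that commits cysteine to glutathione, had a gained promoter site of score 218 with an AP-1 word. GSTO1 had a gained promoter site of score 133 that also lies within range of GSTO2. GSTK1, the mitochondrial glutathione transferase, was bound in both lines through a kept site 40 bp from a start, with scores of 683 in pSKBr3 and 1817 in LRSKBr3, and had 2 gained sites of scores 75.5 and 351, the first holding the ERRE printed above. GSR, glutathione reductase, had 2 kept and 2 gained sites. At GPX1 a kept site, scoring 477 and 517, lay 18349 bp away and in the promoter of another gene. GPX7 was lost only, with a score of 50.6, at the floor of the list.

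The other antioxidant genes had peaks in both lists in 29 of 39 cases (74.4%), and 4 (10.3%) were gained only, against 52% and 15.1% of all coding genes. The gained-only count was 6 of 39 within 10 kb and 1 of 39 with lists of equal size. Of all 19821 coding genes, 3075 and 1110 were gained only at these settings. SOD1, cytosolic superoxide dismutase, had 2 gained promoter sites of scores 56.5 and 128. SOD3, the secreted enzyme, had 1 of score 64.2, and NFE2L1 and NQO2 had scores of up to 247 and 81.3. SOD2, the mitochondrial enzyme, had 3 kept sites, the strongest scoring 1737 and 2366 with its centre 128 bp from a start. It also had 4 gained sites of scores from 78.1 to 312. These sites are spread over a long annotated gene (chr6:160090101-160183561). The other kept sites, at 160146990-160148495 and 160182631-160184393, lay at further annotated starts of it. Whether they also lie at starts of other genes was not examined. In the drug metabolism and transport list 27 of 43 genes (62.8%) had peaks in both lists, against 52% of all coding genes. Another 6 (13.95%) were gained only, against 15.1%, among them AKR1B10 (score 253), CYP1A1 (120) and ABCC2 (94.2). AKR1C3 was lost only (75.5), which makes 2.33% of the list against 1.91% of all coding genes. At equal list size 1 of the 43 genes was gained only, against 1110 of all 19821 coding genes.

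At 20 kb the largest gained-only shares were those of the lists labelled ERK feedback inhibitors and PI3K, AKT and mTOR pathway. The share of all coding genes was 15.1%. The first of these lists holds DUSP, SPRY, SPRED, LRIG, CBL and SOCS genes and ERRFI1, so it is not confined to inhibitors of ERK. Within 10 kb the counts were 13 of 30 and 12 of 46, against 3075 of 19821 coding genes, and the share of the latter list was then below those of luminal lineage (8 of 26), integrin (7 of 26) and ERBB genes (4 of 15). Of the 30 genes of the list labelled ERK feedback inhibitors, 10 (33.3%) were gained only. Peaks in both lists lay near 17 (56.7%), against 52% of all coding genes. ERRFI1, an inhibitor of ERBB kinases, had 2 gained sites of scores 124 and 144. CBL and CBLC, ubiquitin ligases for receptor kinases, had sites of scores up to 142 and 134, and SOCS5 a promoter site of score 137. Of 46 genes of the PI3K, AKT and mTOR list, 13 (28.3%) were gained only and 27 (58.7%) had peaks in both lists. PIK3R3, a regulatory subunit of PI3K, had gained sites of scores 80.1 and 234. INPP4B and GAB2 had scores of up to 179 and 167. RICTOR, a component of mTOR complex 2, had a promoter site of score 155 and the ERRE site printed above, with a score of 51.4. With lists of equal size the gained-only counts were 4 of 30 and 8 of 46, against 1110 of all 19821 coding genes.

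The gained-only shares of receptor genes at 20 kb were nearer to the 15.1% of all coding genes. Of 15 ERBB receptor and ligand genes 7 (46.7%, against 52% of all coding genes) had peaks in both lists, EGFR with 1 kept and 2 gained sites and ERBB3 with 4 kept and 2 gained. The receptor genes ERBB2 and ERBB4 had no peak of either list within 20 kb of a start. No peak lay near 6 of the 15 genes (40%), against 30.9% of all coding genes. The ligand genes HBEGF and NRG4 were gained only, with scores of up to 126 and 104. Of 54 other receptor tyrosine kinase genes 26 (48.1%) had peaks in both lists and 8 (14.8%) were gained only. EPHA4 and IGF1R had 3 gained sites each, with highest scores of 292 and 283, FGFR3 a site of score 152, and AXL an intronic site of score 136 with the ERRE printed above. Of 26 integrin genes 13 (50%) had peaks in both lists and 5 (19.2%) were gained only, ITGA3 with 3 sites of scores up to 199, ITGA10 with up to 193, ITGA1 with 114, ITGAM with 86.7 and ITGAL with up to 57.1. With lists of equal size the gained-only counts were 0 of 15, 4 of 54 and 2 of 26 for these lists. Of all 19821 coding genes, 1110 were gained only at that setting. ITGAX was lost only, with a score of 60.7, which makes 3.85% of the integrin genes against 1.91% of all coding genes.

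Of 18 AP-1 genes 14 (77.8%, against 52% of all coding genes) had peaks in both lists. Of these 14, 11 had a gained site as well, as did 5559 of the 10309 coding genes with peaks in both lists. No AP-1 gene was gained only, against 15.1% of all coding genes. The count was 1 within 10 kb and 1 at a minimum score of 100, against 15.5% and 15.6%. BATF3 was lost only (score 68.0), which makes 5.56% of the AP-1 genes against 1.91% of all coding genes. JUND had 1 kept site and 2 gained sites, the strongest scoring 624. Of 26 luminal lineage genes 15 (57.7%) had peaks in both lists and 5 (19.2%) were gained only, against 52% and 15.1% of all coding genes. The gained-only count was 8 within 10 kb and 1 with lists of equal size, against 3075 and 1110 of all 19821 coding genes. GRHL2 had a gained site of score 107, TFAP2B one of 79.9, ESRP1 one of 67.5 and ESR1, the oestrogen receptor α gene, one of 51.9, close to the floor of 50.

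Of 30 genes for ERRs, coactivators and mitochondrial regulators 19 (63.3%) had peaks in both lists, 5 (16.7%) were gained only and 1 (3.33%) was lost only, against 52%, 15.1% and 1.91% of all coding genes. At equal list size 2 of the 30 were gained only, against 1110 of all 19821 coding genes. ESRRA itself had 6 kept and 2 gained sites within 20 kb. The kept peak that reached across its 5′ end scored 3100 in both lists, a value at which many peaks of each list were tied. A gained site inside the gene, 695 bp from an annotated start, scored 304. NCOA1, a coactivator, was gained only, with a score of 212, as were SIRT1 (130), PRKAA1 (108), NRF1 (95.3) and ESRRB (91.9), and NCOA2 was lost only (59.6). PPARGC1B, which encodes PGC-1β, had 4 kept, 5 gained and 1 lost site.

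**Figure D5:**
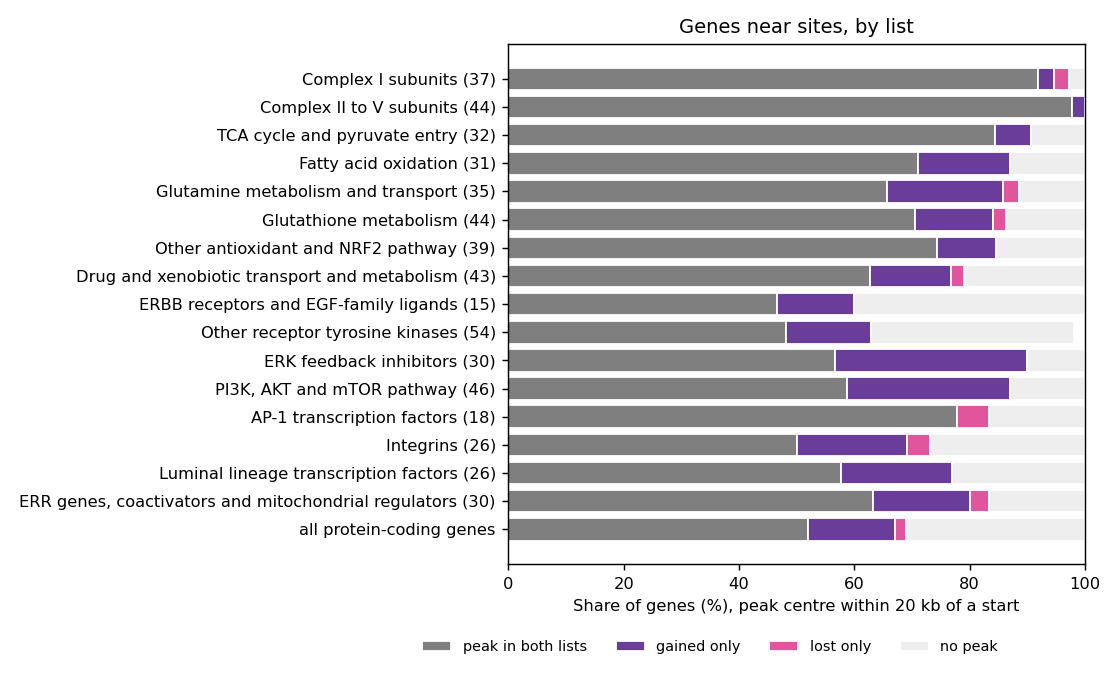
Share of the genes in each list (%, x axis; number of genes in parentheses) with peaks of both lists, gained sites only, lost sites only or no peak within 20 kb of a start, with all protein-coding genes in the bottom bar. Peaks of both lists lie near 91.9% of complex I genes and 97.7% of genes of complexes II to V against 52% of all genes. Gained sites only lie near 33.3% of the list labelled ERK feedback inhibitors and 28.3% of the PI3K, AKT and mTOR genes against 15.1%.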

How the data were processed

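ERRα ChIP and input DNA of pSKBr3 and LRSKBr3 cells was sequenced. The authors aligned reads to hg19 with BWA 0.5.9 and called peaks with MACS 1.4.1 (mfold 10 to 30, bandwidth 300, P cutoff 1e-05). The deposited score is 10 times the negative log10 of P for a peak called on 2 pooled ChIP libraries against 1 input, and no file gives tag counts or a value per replicate. The other 6 lists were used only to count merged regions.

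From the deposited intervals, sites were formed by an overlap of at least 1 bp. The centre of a site was that of its highest-scoring LRSKBr3 peak, or pSKBr3 peak for lost sites. It is not a summit, which matters most for wide peaks. Starts came from GENCODE 44 (lift37), 19821 protein-coding genes, and sequence from GRCh37. Python 3.11.15, numpy 2.4.6, scipy 1.17.1 and pysam 0.24.0 were used. Shares carry 95% Wilson intervals. The steps were tested on simulated peaks: 6000 of 6000 sites were given their class.

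The classes and the 16 gene lists (551 symbols, of which GSTT2 was not matched) were chosen with earlier results of these data known. Named were the 3 strongest sites and promoter sites of each class, the genes and chains with most gained or lost sites, loci of the study, and in each list the gained-only genes (the 4 of highest score where more than 5) and all lost-only genes. Genes named outside this rule (DAB2IP, JARID2, PFDN4, EGFR, ERBB2, ERBB3, ERBB4, JUND, PPARGC1B, MED24, PREX1, PTGIS and CEBPB, and the GSTK1, RICTOR, AXL and ETFB sequences) were picked after their values were seen. Some items that this rule names are not reported here.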

Additional observations from a re-analysis of the deposited data

How the results depend on the processing

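No paired analysis was possible because the peak lists analysed here each pool the replicate libraries of a line, and for the same reason no replicate could be left out. Of 81 recomputed values, 26 stayed within 1.5 times (counts) or within the 95% interval of the value reported (shares and medians), and 55 did not. The causes were not tested, beyond what the settings do by construction.

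With a minimum score of 80 in both lists 1335 sites were lost. With a minimum score of 100, 12634 sites were kept and 1011 lost. With overlap of 50% of both peaks 6032 were lost, and with centres within 500 bp 5481. With lists of equal size 6503 were gained and 5840 lost, 1110 genes were gained only and 1365 lost only, and the gained-only genes of all lists together fell from 80 to 36.

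Promoter shares of gained, kept and lost sites were 14.1%, 28.3% and 21.96% at a minimum score of 100, 17.4%, 31.1% and 13.7% with promoters of 2.5 kb, and 19.4%, 33.7% and 16.7% with the starts of all annotated genes. With lists of equal size the gained and lost shares were 11.3% and 17.1%. Median distances were 19610, 10138.5 and 22560.0 bp at a minimum score of 100 and 6754, 3754.5 and 10203 bp to the starts of all annotated genes, and 20932 bp for gained and 25740.5 bp for lost sites with lists of equal size. Shares with a neighbour were 40.5%, 42.6% and 25.7% at a minimum score of 100, 29.6%, 30.2% and 16.7% at 5 kb, and 73.0%, 75.04% and 54.8% at 25 kb, and with lists of equal size 40.3% of gained and 42.2% of kept sites.

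ERRE shares were 6.83%, 6.66% and 7.91% at a minimum score of 100, 6.24%, 6.84% and 7.997% with lists of equal size, 10.5%, 10.2% and 8.50% within 200 bp (flanks 0.632%, 0.648% and 0.822%), and 26.5%, 24.2% and 21.1% for the half-site AAGGTCA (flanks 3.83%, 3.67% and 3.62%). AP-1 shares within 200 bp were 11.4%, 9.84% and 8.71%, against 6.27%, 6.55% and 6.14% in the flanks.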

Other observations

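Base composition differed between the classes. In the 200 bp around the centre the mean GC content was 48.0% at gained sites (SD 9.46 between sites), 52.2% at kept sites (SD 10.5) and 48.1% at lost sites (SD 10.6). At promoter sites it was 58.4%, 61.4% and 63.6%. A CpG ratio over 0.6, the ratio of observed to expected CpG, was found at 51.5% of gained, 66.9% of kept and 71.0% of lost promoter sites, and away from promoters at 2.91%, 4.87% and 4.35%.

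A peak of at least 5 kb lay at 152 gained sites (0.733%), 502 kept sites (2.65%) and 82 lost sites (2.87%). Chromosome 20 held 61 of the gained, 132 of the kept and 35 of the lost ones, and chromosome 7 held 33, 90 and 23. On chromosome 20, 9.92% of gained, 19.6% of kept and 13.0% of lost sites were this wide. Of the widest gained sites, one of 18306 bp with a score of 939.9 reached into MED24, a Mediator subunit gene on chromosome 17 (chr17:38168370-38186675). One of 17905 bp with a score of 197 was intronic and nearest to a start of PREX1, an exchange factor for the GTPase RAC (chr20:47355182-47373086). The widest lost site, 13546 bp with a score of 627, lay 42704 bp from a start of PTGIS, prostacyclin synthase (chr20:48220605-48234150). The widest kept site, of 20646 bp, lay in intergenic sequence 88242 bp from the nearest start, that of CEBPB. The lists hold no input coverage, and the part of DNA content in these widths was not tested.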
